A study of Mus musculus with 4 samples.

Results

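Memory-like CD8 T cells with NK receptors were picked out of single cells from tumour-draining lymph nodes by a rule on 7 genes. A cell barcode had to hold at least 300 genes, at most 10% of its unique molecular identifiers (UMIs, the tags that count single RNA molecules) from mitochondrial genes, a UMI of Cd3e and of Cd8b1, and none of Cd4, Cd79a or Mki67. Such cells are called CD8 cells here. Members were the CD8 cells with a UMI of at least 3 of Ccl5, Il2rb, Klrk1, Klra7, Klre1, Gzmm and Samd3. They numbered 395 of 5953 CD8 cells, of 26096 barcodes that passed the filters and of 30824 in all. The comparison class was the 3652 CD8 cells with none of the 7 genes, and the CD8 cells with 1 or 2 of them belonged to neither class. The members were chosen by measured values, the UMIs of these 7 genes and of the genes of the gate, so the difference between both classes is described and not tested.

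The cells came from inguinal nodes of 4 C57BL/6J mice that all carried B16F10 tumours, a transplantable melanoma line, in both thighs. The 2 control mice had no treatment. The 2 treated mice had 3 drugs. From day 9 their drinking water held 2 mg/ml of indoximod, which acts on the tryptophan pathway of the enzyme IDO, and 350 ug of the BTK kinase inhibitor ibrutinib was injected daily. On day 10 they received 150 mg/kg of cyclophosphamide, an alkylating drug, and nodes of every mouse were harvested 2 days later. Sexes and ages are not given in the sources used here. The suffix of a barcode, 1 to 4, names its library, but which mouse or group a library came from cannot be read from the tables. Each library is therefore described by itself, and the effect of treatment is not analysed here.

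In mice, CD8 T cells with memory features arise after infection or vaccination, and also without a foreign antigen, when naive cells respond to cytokines such as IL-15. The latter, often named virtual memory cells, carry the IL-2 and IL-15 receptor beta chain, Eomes, CD44 and Ly6C, and part of them carry receptors first known from natural killer (NK) cells. The mouse Ly49 receptors (Klra genes) bind MHC class I and mostly inhibit, the NKG2 receptors (Klrc genes with Klrd1) bind the nonclassical molecule Qa-1, and NKG2D (Klrk1) binds stress-induced ligands and activates.

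The share of members among CD8 cells was 7.32% (5.95% to 8.89%) in library 1, 7.01% (5.70% to 8.50%) in library 2, 6.09% (4.96% to 7.40%) in library 3 and 6.34% (5.25% to 7.58%) in library 4, with exact 95% Clopper-Pearson intervals. These are 93 of 1271, 95 of 1356, 95 of 1559 and 112 of 1767 cells. The 4 intervals overlap each other. Over all libraries the share was 6.64% (6.02% to 7.30%). Intervals here cover counting error only, since cells of 1 library are not replicates of a condition.

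**Figure D1:**
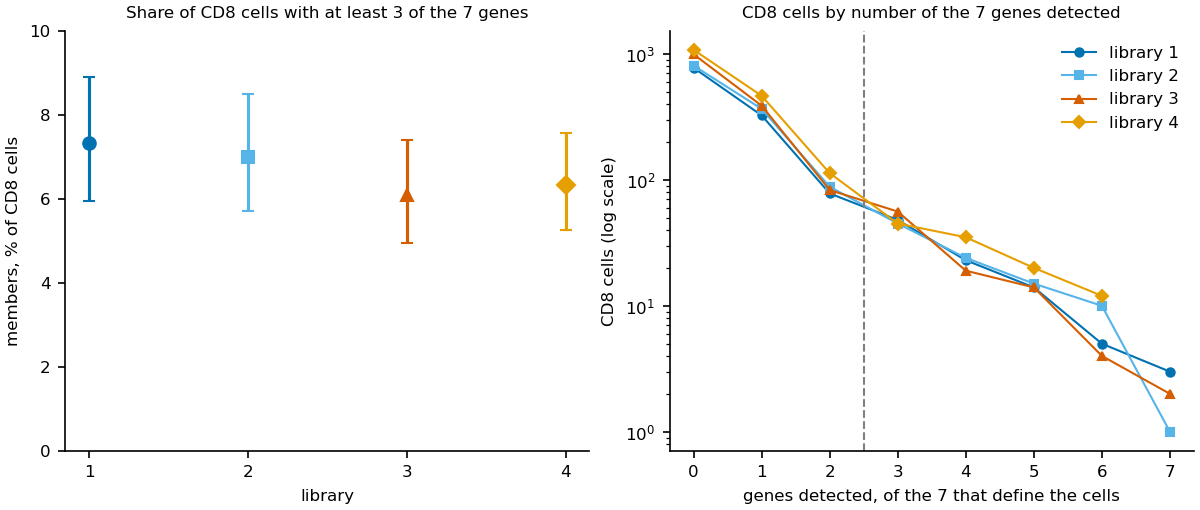
Left, members as a percentage of CD8 cells (y axis) in libraries 1 to 4, with exact 95% intervals. Right, CD8 cells (log scale) by how many of the 7 genes were detected, 1 line per library, with the threshold dashed: the count drops from 3652 cells with none to 362 with 2, 194 with 3 and 6 with all 7, and library 4 had no cell with all 7.

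Members were deeper than the comparison class, with a median of 10718 against 6671.5 UMIs per cell, and a deeper cell shows more of the 7 genes. Median depth was 6671.5, 7574.5, 8926, 10757.5 and 10557 UMIs in CD8 cells with 0, 1, 2, 3 and 4 of the genes. Summed over cells, members held 971397, 1022620, 1139411 and 1307529 UMIs in libraries 1 to 4. The labels state about 2000 cells and 80k reads per cell for each sample, whereas libraries 1 to 4 held 7002, 6978, 7013 and 9831 barcodes with medians of 4672 to 5002 UMIs. Scrublet, a doublet caller, marked 927 of the filtered barcodes, among them 0 members and 37 cells of the comparison class. Of all barcodes, 172 had a sequence that also occurs in another library (86 sequences). Such barcodes included 2 members, and no sequence was shared between members.

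Ccl5, a chemokine that draws T cells and monocytes, was found in 97.2% of members and Il2rb, the receptor chain for IL-2 and IL-15, in 92.7%. Samd3, a gene of NK and memory T cells, was found in 65.3% and Gzmm, a granzyme, in 42.5%. The NK receptor genes of the rule were found in fewer cells: Klrk1 in 33.7%, Klra7 (Ly49G) in 28.1% and Klre1, a lectin-like receptor with inhibitory and activating partners, in 27.6%. Membership therefore mostly rested on Ccl5 and Il2rb with at least 1 more gene.

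Levels are given as counts per 1000000 UMIs of a class (CPM), with counts summed over the cells of the class, and so combine the share of cells with a gene and the amount per cell. The Ccl5 level of members was 3983, 3943, 2439.9 and 2634 CPM in libraries 1 to 4, higher in libraries 1 and 2 than in 3 and 4. The median member had 24 Ccl5 UMIs, and the medians by library were 26, 27, 26 and 22. The cell with the most Ccl5 held 367 of the 4032 Ccl5 counts of library 2. Il2rb was at 278, 263, 216 and 221 CPM and Gzmm at 125, 119, 88.6 and 109 CPM in the same order. Both had their lowest level in library 3. Samd3 was at 89.6, 118, 84.3 and 102, Klrk1 at 89.6, 128, 58.8 and 79.5, Klra7 at 76.2, 72.4, 72.8 and 106 and Klre1 at 80.3, 75.3, 61.4 and 72.7 CPM. Klrk1 and Samd3 were highest in library 2, Klra7 in library 4 and Klre1 in library 1. In the comparison class all 7 are at 0 by construction.

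To read the 7 genes on UMIs that had not chosen the cells, the UMIs of each cell were split at random into equal parts, 1 for the rule and 1 for the values. The rule then found 253 members and 4373 CD8 cells with none. In the unused UMIs Ccl5 was at 3667 against 13.3 CPM (log2 ratio 8.10) and Il2rb at 253 against 35.6 CPM (2.83). Gzmm was at 129 against 0.458 CPM, Samd3 at 92.4 against 1.57 CPM, Klrk1 at 97.3 against 5.04 CPM, Klra7 at 117 against 0.131 CPM and Klre1 at 90.4 against 0.262 CPM. All 7 genes thus had a higher summed level in these members on the unused UMIs as well. Both parts come from the same cells, which were picked for these genes, so this is not an independent test. Il2rb had the smallest ratio of the 7, with the highest level in cells with none.

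Markers of the label and of T cells were looked up in members. Trac, the alpha chain of the T cell receptor, was found in 98.5% (96.7% to 99.4%) of members and Trbc2, a beta chain segment, in 99.5% (98.2% to 99.9%). Cd8a, which the rule did not use, was found in 86.8% (83.1% to 90.01%) of members and 85.3% (84.1% to 86.4%) of the comparison class. Of the 2 markers of the label that were outside the rule, Ly6c2 was in 96.5% and Xcl1 in 52.4% of members, against 36.97% and 0.904% of the comparison class. These 2 markers were chosen with earlier results of these data known. Their shares describe the members and do not check the label. The memory genes Cxcr3, Eomes and Cd44 were in 65.8%, 55.9% and 43.3% of members, against 3.86%, 7.91% and 3.56%. In B cells (8831 cells, median 3798 UMIs), which should lack them, Ly6c2 was in 6.99%, Xcl1 in 0.204%, Cxcr3 in 0.498% and Eomes in 0.0906% of cells. Cd44, which B cells also express, was in 7.24% of them.

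With every cell thinned to 1500 UMIs, so that all have the same depth, the order was kept. Ly6c2 was then in 81.8% of members and 20.1% of the comparison class, Xcl1 in 14.9% and 0.329%, Cxcr3 in 14.7% and 1.15%, and Cd44 in 6.84% and 0.795%. Thinning left out 0 members and 2 cells of the comparison class. Members thus had the larger share of each gene at equal depth as well.

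Markers of other cells were looked up in members. Ncr1, the gene of the NK receptor NKp46, was in 4 of 395 members and in 80.6% (68.6% to 89.6%) of NK-like cells. Ncr1 was in 0 of 3652 cells of the comparison class. Klrb1c, which encodes NK1.1, was in 4.81% (2.92% to 7.41%) of members and 0.137% (0.0445% to 0.319%) of the comparison class. The signalling adaptor Tyrobp was in 9.11% (6.46% to 12.4%) and 1.07% (0.760% to 1.46%), and the adaptor Fcer1g in 11.9% (8.88% to 15.5%) and 0.493% (0.292% to 0.778%). The summed level of 12 NK and innate markers was 250.1 to 503 CPM over the libraries in members, 76.5 to 112 CPM in the comparison class and 12465 to 21446 CPM in NK-like cells. The 503 CPM of library 4 included 197 CPM of Gzma, and 1 cell held 255 of its 258 counts there. This list also holds Eomes and Il18rap, which are described below among genes of memory cells, so the sum is not a measure of NK content alone. At least 1 of Ncr1, Tyrobp and Fcer1g was found in 70 members, and at least 2 in 13. Of 4 genes of this list that could be tested, Il18rap, Fcer1g and Eomes were called higher in members. The Fcer1g call was lost without library 2, 3 or 4.

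Zbtb16, the transcription factor of NKT and MAIT cells, had 0 counts in 395 members, which allows a share of up to 0.930% of cells with a UMI. The summed level of 8 NKT and MAIT markers was 8.24 to 12.7 CPM in members and 0.593 to 1.61 CPM in the comparison class. Trdc, the delta chain of the gamma-delta receptor, was in 4.05% (2.33% to 6.49%) of members and 2.88% (2.36% to 3.47%) of the comparison class, and Tcrg-C1 was in 5.82% (3.73% to 8.61%) and 0.520% (0.314% to 0.811%). Of 14 gamma-delta markers, the summed level was 51.5 to 75.7 CPM in members and 15.3 to 23.6 CPM in the comparison class, with Sox13, Il23r and Il17a at 0 in members. Tcrg-C2 was in 7.34% (4.97% to 10.4%) of members and 0.493% (0.292% to 0.778%) of the comparison class, and Tcrg-C4 in 3.80% (2.14% to 6.19%) and 0.520% (0.314% to 0.811%). Trdc, the only gene of this list that could be tested under the fold rule given below, was called higher, at 21.8 against 12.1 CPM. Without cells that carried Trdc or Zbtb16 (16 members), 145 genes were called higher and 83 lower than in the comparison class, against 155 and 90 with them. The B cell list was at 282 to 360.2 CPM in members and 435 to 628 CPM in the comparison class, the CD4 and regulatory list at 81.6 to 114 CPM and 102 to 124 CPM, and the myeloid list at 22.6 to 75.3 CPM and 105 to 145 CPM. Igkc, an antibody gene, was in 23.5% (19.4% to 28.04%) of members and 18.98% (17.7% to 20.3%) of the comparison class. Whether RNA of other cells adds to single genes was not tested beyond these values.

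Members were set against CD8 cells with none of the 7 within each library. A gene was tested when at least 3 libraries had enough UMIs for 10 counts in the smaller class, and was called when its CPM differed at least 1.5-fold in every such library, always with the same sign. This is a rule of size and not a significance test. Of 6564 genes tested, 155 were higher in members, which is 2.36%, and 90 were lower, which is 1.37% (3.73% in either direction). The median log2 ratio of all genes was -0.01. The rule used this contrast, so these counts describe the members and support nothing further. Log2 ratios below are from summed counts, followed in parentheses by the lowest and the highest library, or by a counting interval where a library had no count in a class. The minimum passes genes that are near 0 in the comparison class only through their level in members, and such genes had to differ. On the UMIs that the rule had not used 3211 genes could be tested, of which 73 were higher and 31 lower, and with values thinned to 1500 UMIs per cell 1361 could be tested, of which 26 were higher and 12 lower.

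**Figure D2:**
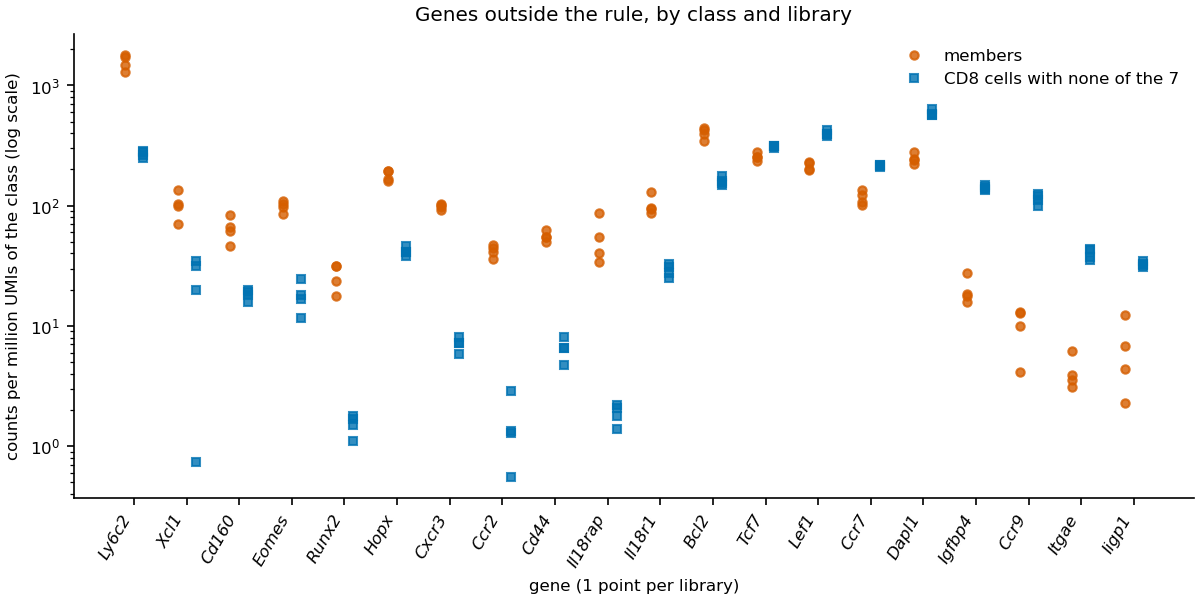
Levels of 20 genes outside the rule in CPM (log scale), with 1 point per library for members (circles) and for CD8 cells with none of the 7 (squares). From Ly6c2 to Bcl2 all 4 members' points lie above the comparison points. The points of Tcf7 (members lower) lie close together, and from Lef1 to Iigp1 the members' points lie below.

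**Figure D3:**
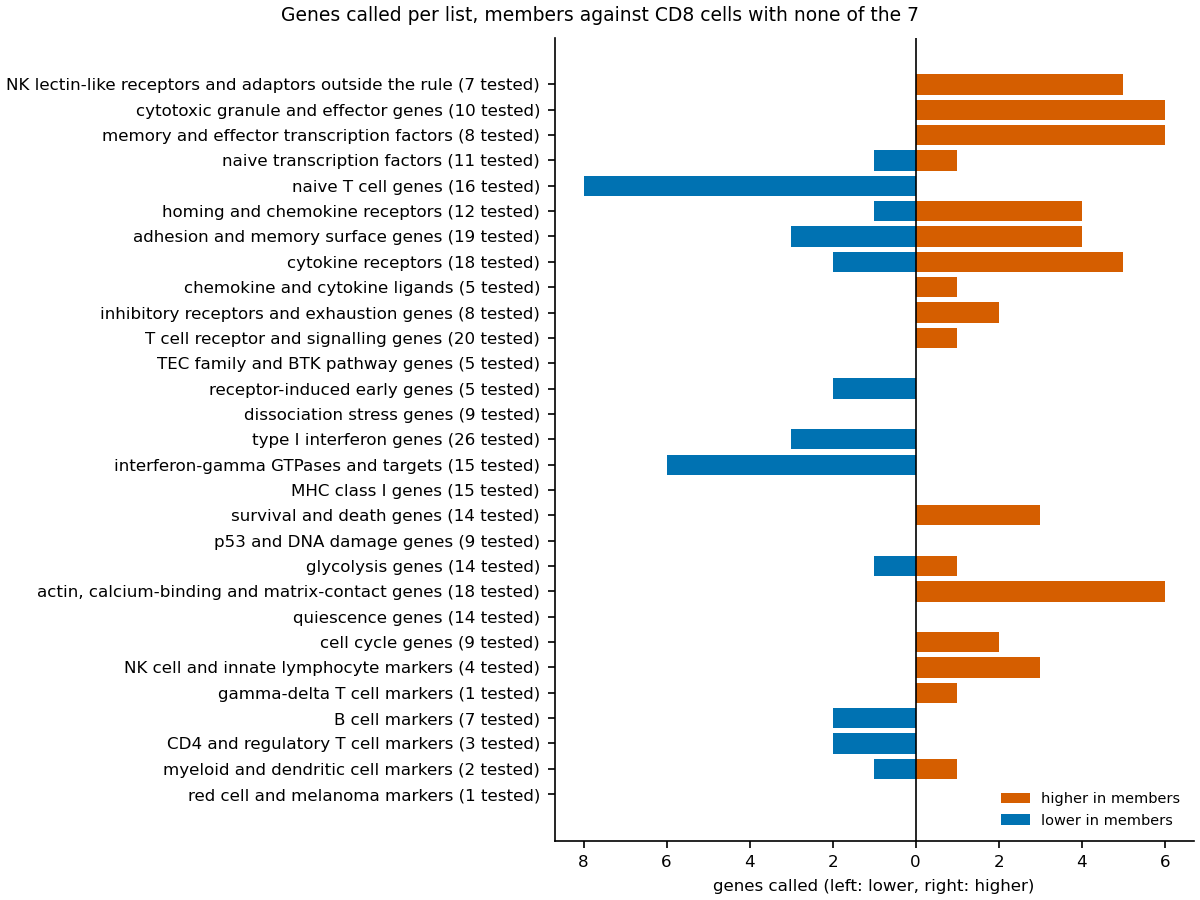
Number of genes called in each gene list, lower in members to the left and higher to the right, with the number tested in each list beside its name. The naive T cell list had 8 of 16 genes lower, the interferon-gamma list 6 of 15 lower, and the cytotoxic and memory transcription factor lists 6 of 10 and 6 of 8 higher.

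Receptors of the NK gene complex had the 4 largest ratios of all genes called, namely Klra6, Klra1, Klrc2 and Klrc1. These had 1, 2, 5 and 7 counts in the comparison class, so they passed the count minimum only through members and had to differ. Klra3 passed in the same way. The comparison class was also chosen to lack Klra7, Klre1 and Klrk1 of the same complex. Their rank and direction therefore describe the members and support nothing further. Of 21 lectin-like receptor and adaptor genes outside the rule, 7 could be tested, 5 were higher and none was lower. Klra6 (Ly49F) was at 33.97, 46.9, 35.98 and 39.005 CPM in libraries 1 to 4 of members and had 1 count in the comparison class, a log2 ratio of 9.93 (counting interval 7.43 to 15.24). Klra1 (Ly49A) was at 26.8, 48.9, 28.96 and 58.1 CPM, with 2 counts in the comparison class (log2 ratio 9.02, counting interval 7.15 to 12.08). Both were present in every library of members, and Klra1 was highest in library 4. Klrc1, which encodes the inhibitory receptor NKG2A, was at 24.8 against 0.280 CPM, and Klrc2, which encodes the activating receptor NKG2C, was at 36.3 against 0.200 CPM. Klra3 (Ly49C) was at 37.4 against 0.720 CPM, but the last 300 bases of its transcript share 98.7% with those of Klra9, so that counting at the 3′ end can split or drop its reads. Klrd1 (CD94), the partner chain of the NKG2 receptors, was at 316, 289, 303 and 301 CPM in members and 246, 236, 226 and 215 CPM in the comparison class, and was not called. CD8 cells with none of the 7 genes thus already carried the partner chain. In cells with at least 500 genes and at most 5% mitochondrial UMIs, 2 of the 7 receptor genes could still be tested and neither was called, and on the UMIs not used by the rule 1 of 3 was called.

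Counted per cell, 174 of 395 members (44.1%, 39.1% to 49.1%) carried a UMI of at least 1 of 10 Klra genes, where Klra7 is also a gene of the rule. The shares were 37.6, 45.3, 45.3 and 47.3% in libraries 1 to 4. Exactly 1 Klra gene was found in 80 members, 2 in 49 and 3 or more in 45, with at most 5 in a cell. Members were thus mixed in their Ly49 repertoire, and more than 50% showed no Ly49 transcript at this depth. In the comparison class 8 of 3652 cells had any, of 9 genes outside the rule.

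The receptor genes lie together on chromosome 6 in build mm10: Klre1 from 129577905 to 129585827, Klrd1 from 129591782 to 129598775, Klrk1 from 129610323 to 129623864, Klrc2 from 129647496 to 129660689, Klrc1 from 129666015 to 129678973, Klra6 from 130013033 to 130026954, Klra7 from 130218605 to 130233322, Klra3 from 130323289 to 130337574 and Klra1 from 130363917 to 130386874 (GENCODE vM21). Klrk1 and Klra7 are genes of the rule, so their presence in members follows from the choice. Klrk1 was in 42.5% (31.0% to 54.6%) of members with and 31.7% (26.6% to 37.1%) of members without a Klra6 UMI, with overlapping intervals. The bases before the starts of Klrk1, Klra6 and Klra7 are shown. They are the 250 bases before a RefSeq start (GRCm38.p6), 5′ to 3′ on the gene's strand, which is the minus strand for all 3, and capitals mark a match to the RUNX motif described further down. The windows are chr6:129623865-129624114 for Klrk1, chr6:130026955-130027204 for Klra6 and chr6:130233323-130233572 for Klra7.
Klrk1: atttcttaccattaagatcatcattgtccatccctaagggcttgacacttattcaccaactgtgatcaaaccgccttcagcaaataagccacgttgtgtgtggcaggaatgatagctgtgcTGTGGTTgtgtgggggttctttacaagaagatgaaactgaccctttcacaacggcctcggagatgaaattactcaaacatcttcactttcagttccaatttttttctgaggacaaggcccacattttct
Klra6: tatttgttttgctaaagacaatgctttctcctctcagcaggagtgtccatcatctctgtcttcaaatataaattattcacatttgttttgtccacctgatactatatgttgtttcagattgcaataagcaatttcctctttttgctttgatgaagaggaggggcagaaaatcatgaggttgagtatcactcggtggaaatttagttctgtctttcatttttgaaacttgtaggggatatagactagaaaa
Klra7: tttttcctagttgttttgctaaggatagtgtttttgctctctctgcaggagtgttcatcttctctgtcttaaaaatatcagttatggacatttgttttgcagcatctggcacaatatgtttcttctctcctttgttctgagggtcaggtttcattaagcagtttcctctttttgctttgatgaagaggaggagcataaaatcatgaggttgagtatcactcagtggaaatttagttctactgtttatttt
The Klra6 and Klra7 windows share 191 of 250 bases (76.4%), and the last 300 bases of their transcripts share 70.3%.

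Among cytotoxic granule and effector genes, 6 of 10 tested were higher and none was lower. Ctsw, a protease of cytotoxic lymphocytes, was at 259, 291, 277 and 304 CPM in members and 146, 133, 139.7 and 137 CPM in the comparison class, and the groups of 4 values do not overlap. Nkg7, a granule membrane protein needed for degranulation, was at 914 against 467 CPM with a log2 ratio of 0.97 (0.86 to 1.13). The granzyme inhibitors Serpinb6b and Serpinb9 were at 37.8 against 12.2 CPM and 19.4 against 9.64 CPM. Tnfsf10 (the death ligand TRAIL) was at 23.4 against 12.6 CPM and Lyst, a regulator of lysosome and granule size, at 81.1 against 48.7 CPM. Against CD8 cells with 0 to 2 of the 7 genes, 3 of 10 were higher, and on the UMIs not used by the rule 2 of 7 were.

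Among transcripts of the classical killing proteins, those of Gzma, Gzmb and Gzmk were found in few members. Prf1, which encodes perforin, was at 72.1, 69.4, 50.9 and 58.1 CPM in members and 40.6, 39.9, 46.9 and 40.7 CPM in the comparison class. It was higher in members in every library but was not called. Gzmb had 28 counts in 10 of 395 members, 16 of them in 1 cell of library 4, Gzmk had 12 counts in 10 members, and Ifng had 6 counts. These 3 genes were too low to be tested. Gzma had 295 counts in 18 members, and a single cell of library 4 held 255 of them. The 13 members with at least 2 of the NK and innate genes Ncr1, Tyrobp and Fcer1g held 281 of the 295.

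Transcription factors of memory and effector cells were called higher for 6 of 8 tested, with none lower. Eomes, which drives IL-15 dependence in memory CD8 cells, was at 104, 109, 96.5 and 85.7 CPM in members and 18.2, 24.4, 11.7 and 16.6 CPM in the comparison class, a log2 ratio of 2.49 (2.16 to 3.04). The levels in the 4 libraries of members lie within a narrow range and well above the comparison class. Runx2 was at 25.7 against 1.52 CPM, Hopx at 177 against 41.6 CPM, Stat4, which transmits the IL-12 signal, at 138 against 72.9 CPM and Irf8 at 16.2 against 6.32 CPM. Ikzf2 (Helios), known from regulatory T cells and from CD8 T cells that carry Ly49 receptors, was at 71.03, 60.6, 56.2 and 65.8 CPM against 22.9, 19.2, 15.1 and 19.2 CPM. Tbx21 (T-bet), the partner of Eomes in effector cells, had 85 counts at 19.6, 17.6, 15.8 and 22.9 CPM in members and 15 counts at 1.09, 0.895, 0.148 and 0.418 CPM in the comparison class. It was too low in members to be tested, and was called higher under TMM scaling. Id2, Id3 and Tox were tested and not called, at 79.9 against 100.3 CPM, 122 against 97.4 CPM and 38.96 against 45.6 CPM.

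Naive T cell genes divided into genes that were lower and genes that were kept. Of 16 naive T cell genes tested, 8 were lower and none was higher. Ccr9, the receptor for homing to the gut, was at 4.12, 12.7, 13.2 and 9.94 CPM in members and 119.9, 125, 111 and 99.4 CPM in the comparison class, a log2 ratio of -3.48 (-4.86 to -3.08). Igfbp4, a marker of naive CD8 cells, was at 19.6 against 141 CPM and Ramp1, a part of the receptor for the neuropeptide CGRP, at 16.7 against 98.7 CPM. Dapl1, a gene of naive and early memory CD8 cells, was at 245 against 588 CPM, and Rflnb, Fam241a, Actn1 and Gm8369 were also lower, with log2 ratios of -1.28, -1.09, -0.74 and -0.73. Of 11 transcription factors of naive cells, Lef1 was lower at 225, 231, 197 and 203 against 424, 398, 396 and 378 CPM and Myb was higher at 31.5 against 12.6 CPM. The Myb call was lost against CD8 cells with 0 to 2 of the 7 genes.

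The other naive factors were not called. Tcf7 (TCF-1), which keeps naive and memory cells able to renew, was at 235, 281, 253 and 254 CPM in members and 301, 314, 315 and 314 CPM in the comparison class (log2 ratio -0.28, -0.36 to -0.16 by library). Members thus kept Tcf7 transcripts at close to the level of the comparison class, with a ratio under 1.5-fold in every library. Klf2, a factor that maintains S1pr1, was at 547 against 601 CPM, Satb1 at 296 against 345 CPM and Il7r, the receptor for the survival cytokine IL-7, at 490.2 against 373 CPM. Bach2, which restrains effector genes, was at 33.8 against 60.4 CPM and not called.

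Chemokine receptors were called in both directions: of 12 homing receptors tested, 4 were higher and 1 was lower. Cxcr3, the receptor for interferon-induced chemokines, was at 91.6, 97.8, 104 and 101 CPM in members and 8.01, 7.16, 7.27 and 5.85 CPM in the comparison class (log2 ratio 3.82, 3.52 to 4.11 by library). Its 4 levels in members are nearly equal. Ccr2, a receptor for inflammatory chemokines, was at 36.03, 41.1, 44.8 and 46.7 against 1.27, 2.87, 1.33 and 0.557 CPM (log2 ratio 4.89, 3.84 to 6.39 by library). Gpr183, an oxysterol receptor that positions cells in the node, was at 143 against 65.1 CPM. Ccr7, which brings naive cells into the T cell zone, was lower at 108, 101, 135 and 122 against 218, 219, 211 and 212 CPM (log2 ratio -0.87, -1.12 to -0.64 by library). S1pr1, the exit receptor, was at 212 against 299 CPM and was not called.

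Of 19 adhesion and memory surface genes tested, 4 were higher and 3 lower. Cd44, the hyaluronan receptor that marks antigen-experienced and virtual memory cells, was at 54.6, 49.9, 63.2 and 55.1 CPM in members and 6.55, 8.06, 4.75 and 6.55 CPM in the comparison class (log2 ratio 3.13, 2.63 to 3.74 by library). Itgb1, an integrin beta chain, was at 125 against 23.998 CPM and Slamf7, a receptor of NK and memory cells, at 43.5 against 5.52 CPM. Itga4, the integrin alpha chain CD49d that is low in virtual memory cells and high after antigen, was lower at 76.2, 82.1, 62.3 and 67.3 against 134, 143, 124 and 112 CPM (log2 ratio -0.83, -0.996 to -0.73 by library). Itgae (CD103), an integrin of cells resident in epithelia, was lower at 4.28 against 39.4 CPM and Cd226, an activating receptor, at 54.9 against 94.1 CPM. Cd69, which holds cells in tissue, was at 177 against 156 CPM and was not called.

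Ly6c2 encodes the surface protein Ly6C of memory CD8 cells and monocytes. It was at 1472, 1285, 1798 and 1721 CPM in libraries 1 to 4 of members and 251, 262, 285 and 279 CPM in the comparison class (log2 ratio 2.55, 2.29 to 2.66 by library). Every library of members was above every library of the comparison class. Its neighbour Ly6c1 was at 0, 1.96, 0.878 and 2.29 against 6.92, 7.52, 10.4 and 10.03 CPM and was too low to be tested, with 6 counts in members and 222 in the comparison class. The last 300 bases of both transcripts share 95.7%, so a part of the counts of either may belong to the other. The windows before their starts are shown because the levels of the 2 genes lay in opposite directions: chr15:75111972-75112221 for Ly6c2 and chr15:75048838-75049087 for Ly6c1, both on the minus strand of chromosome 15, with capitals for matches to the RUNX and ETS motifs.
Ly6c2: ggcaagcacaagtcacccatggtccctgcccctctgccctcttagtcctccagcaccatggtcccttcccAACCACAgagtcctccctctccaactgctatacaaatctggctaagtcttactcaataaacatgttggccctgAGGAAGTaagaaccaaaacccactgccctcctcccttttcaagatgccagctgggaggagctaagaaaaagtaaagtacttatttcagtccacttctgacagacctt
Ly6c1: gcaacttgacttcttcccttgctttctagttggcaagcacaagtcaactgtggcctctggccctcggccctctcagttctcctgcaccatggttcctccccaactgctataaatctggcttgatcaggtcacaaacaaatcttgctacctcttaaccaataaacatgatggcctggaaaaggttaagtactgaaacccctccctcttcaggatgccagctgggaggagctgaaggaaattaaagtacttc
These windows share 171 of 250 bases (68.4%).

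Cytokine receptors were called higher for 5 of 18 tested and lower for 2. Il18r1 and Il18rap encode both chains of the IL-18 receptor, which lets memory cells respond without antigen. Il18r1 was at 129, 93.9, 86.9 and 95.6 against 32.6, 30.98, 27.6 and 24.9 CPM and Il18rap at 54.6, 87.03, 34.2 and 40.5 against 2.18, 1.79, 2.08 and 1.39 CPM (log2 ratio 4.84, 4.04 to 5.60 by library). Library 2 of members had the highest Il18rap level. Ifngr1 was higher at 147 against 69.6 CPM, whereas Ifngr2, the other chain of the interferon-gamma receptor, was lower at 4.12, 2.93, 4.39 and 4.59 against 23.5, 23.5, 25.7 and 21.6 CPM (log2 ratio -2.54, -2.999 to -2.23 by library). The 2 chains of 1 receptor thus differed in direction in every library. Il4ra, through which IL-4 induces memory-like CD8 cells, was at 49.5 against 31.3 CPM and Il10ra at 15.99 against 2.68 CPM. Without library 2, 3 or 4 too few UMIs were left to test Il10ra. On the UMIs not used by the rule, 2 of 14 genes of this list were higher and none was lower. Il2rg, the common chain that pairs with Il2rb, was at 211 against 251 CPM and was not called. The other gene called lower in this list was Cd74, which is mainly a gene of B and antigen-presenting cells, at 29.7 against 78.2 CPM.

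Xcl1, a chemokine that attracts type 1 dendritic cells, was the only ligand gene called of 5 tested. It was at 99.9, 70.4, 103 and 135 CPM in members and 34.4, 31.3, 0.741 and 19.9 CPM in the comparison class (log2 ratio 2.34, 1.17 to 7.11 by library), with the comparison level of library 3 far below the other libraries. Of the comparison class only 33 cells held Xcl1, with 512 counts between them, against 207 members with 462 counts. Few cells with many counts each therefore set the level of the comparison class. Its window before the start, chr1:164935523-164935772 on the minus strand, is shown because it holds a match to each of the 3 motifs described further down, in capitals.
Xcl1: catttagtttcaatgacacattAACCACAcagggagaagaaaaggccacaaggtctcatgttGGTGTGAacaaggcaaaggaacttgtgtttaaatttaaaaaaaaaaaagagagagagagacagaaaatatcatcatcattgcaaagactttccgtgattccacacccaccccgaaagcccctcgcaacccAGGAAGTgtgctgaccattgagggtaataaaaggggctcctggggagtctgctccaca

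Of 8 inhibitory receptor and exhaustion genes tested, 2 were higher. Cd160, a receptor of cytotoxic cells, was at 65.9, 45.96, 84.3 and 61.9 against 19.3, 15.8, 17.9 and 19.9 CPM (log2 ratio 1.82, 1.54 to 2.23 by library), and Lair1, a collagen receptor, at 17.8 against 6.56 CPM. Pdcd1 (PD-1) had 15 counts in members, 13 of them in library 2, and was not tested, as were Lag3 with 10 and Tigit with 1. The other 6 genes tested in this list were not called. Without library 3 or 4, 1 of 7 was higher.

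Genes of cell shape, calcium binding and matrix contact were called higher for 6 of 18 tested, with none lower. S100a6 was at 238, 297, 263 and 363 CPM in members and 13.5, 32.4, 17.2 and 19.1 CPM in the comparison class (log2 ratio 3.86, 3.20 to 4.25 by library). Anxa2, a membrane-binding partner of S100 proteins, was at 77.01 against 6.96 CPM and Ahnak, a large scaffold protein, at 213 against 44.8 CPM. Lgals1 (galectin-1) was at 319.8 against 100.3 CPM and Myo1f, a myosin, at 48.9 against 7.80 CPM. S100a4 was called as well, but not against CD8 cells with 0 to 2 of the 7 genes (0.63).

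Interferon-induced genes were lower or not called. Of 15 interferon-gamma GTPases and targets tested, 6 were lower and none was higher, with a median log2 ratio of -0.64, against -0.01 for all genes. Iigp1, a GTPase that attacks vacuoles of parasites, was at 12.4, 6.85, 4.39 and 2.29 CPM in members and 34.8, 31.9, 30.99 and 32.5 CPM in the comparison class (log2 ratio -2.42, -3.82 to -1.49 by library). Igtp was at 39.9 against 81.7 CPM, Gbp2 at 22.7 against 44.6 CPM and Gbp8 at 18.5 against 32.4 CPM. Tgtp1 and Tgtp2 were also lower (-1.71 and -1.47), but the last 300 bases of their transcripts are identical, so their reads cannot be told apart. On the UMIs not used by the rule 7 genes of this list could be tested and none was called. Iigp1 had 3 counts in members and 508 in cells with none there, a log2 ratio of -4.01. Of 26 type I interferon genes, 3 were lower and none was higher. Among them Stat2, a transducer of the interferon signal, was at 7.21 against 14.5 CPM and Slfn5 at 33.8 against 69.4 CPM. The median log2 ratio of this list was -0.48. Isg15 was at 36.03, 36.2, 84.3 and 106 against 66.1, 68.4, 136 and 147 CPM and was not called. In both classes its levels in libraries 3 and 4 were above those in libraries 1 and 2. Of 15 MHC class I genes none was called.

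Of 14 survival and death genes tested, 3 were higher and none was lower. Bcl2, the anti-death protein that IL-7 and IL-15 sustain, was at 427, 439, 345 and 396 CPM in members and 149, 175, 160.5 and 156 CPM in the comparison class (log2 ratio 1.32, 1.10 to 1.52 by library). The death-promoting gene Bbc3 (Puma) was also higher, at 46.4 against 16.7 CPM. A gene that protects and a gene that promotes death were thus both among those called, and Mcl1 and Bcl2l11 (Bim) were not called, at 169.6 against 215 CPM and 42.3 against 24.1 CPM. Of 9 p53 and DNA damage genes none was called. Both classes come from the same libraries, which cannot be tied to treated mice, so this does not bear on the effect of cyclophosphamide.

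Ibrutinib inhibits BTK, a kinase of the TEC family, so this family was examined. Txk, a TEC kinase of T cells, was at 374, 335, 309 and 285 CPM in members and 242, 203, 204 and 210.3 CPM in the comparison class (log2 ratio 0.59, 0.44 to 0.72 by library). Its ratio did not reach 1.5-fold in every library, though without library 4 it was called higher at 0.65. Btk had 2 counts in members. None of the 5 genes tested in this list was called, and for the same reason this does not bear on the effect of ibrutinib. Of 20 T cell receptor and signalling genes only Fyn was higher, at 149.7 against 96.6 CPM, and Cd8a, Cd3d, Cd3g and Cd5 were not called, with log2 ratios of -0.50, -0.06, -0.44 and 0.06. The receptor-induced early genes Egr1 and Egr3 were lower, 2 of 5 tested, at 10.1 against 32.96 CPM and 3.38 against 16.3 CPM. Without library 2, 3 or 4, Egr3 could not be tested. No dissociation stress gene of 9 and no quiescence gene of 14 was called.

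Of 9 cell cycle genes tested, Stmn1 and Mcm5 were higher, at 58.3 against 10.4 CPM and 22.1 against 9.56 CPM, although Mki67 was excluded by the rule. Without library 1, 5 of 9 were higher, and without library 2, 3 or 4, 1 was. Library 4 held 157 of the 259 Stmn1 counts of members, and without it the log2 ratio was 1.61, against 2.49 with it. Top2a, a gene of late S phase to mitosis, was in 7.59% (5.18% to 10.7%) of members and 2.25% (1.79% to 2.78%) of the comparison class. Of 14 glycolysis genes Pfkp was higher and Ldhb lower, at 74.98 against 40.5 CPM and 4.95 against 17.6 CPM.

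Outside all lists, the genes with the largest ratios were led by Plek, a protein of granule release, at 73.1, 61.6, 54.4 and 57.4 against 0.728, 1.43, 0.741 and 0.418 CPM (log2 ratio 6.25, 5.43 to 7.10 by library). Qrfp, a neuropeptide gene, was at 29.05 against 0.880 CPM and Ctla2a, an inhibitor of cysteine proteases, at 409, 499, 467 and 439.8 against 18.7, 21.1, 12.3 and 11.7 CPM (log2 ratio 4.87, 4.45 to 5.25 by library). Ctla2a was in 84.1% of members and 5.01% of the comparison class, and in 41.01% and 1.64% after thinning. Lrrk1, a kinase, was at 22.3 against 0.840 CPM and Ifngas1, a noncoding RNA beside Ifng, at 37.8 against 1.88 CPM. Lrrk1 could not be tested without library 1, 2 or 3. Ifngas1 was called, while Ifng itself had 6 counts. The largest ratios in the other direction were those of the noncoding RNA 1700062C10Rik, with 3 counts in members and 822 in the comparison class (log2 ratio -5.60, counting interval -7.89 to -4.05), of Tmie at 2.93 against 21.6 CPM, of Rgcc, a cell cycle regulator induced by complement, at 28.8, 26.4, 22.8 and 34.4 against 175, 182, 179 and 160.0 CPM, of Plekho1 at 4.50 against 25.8 CPM and of Gm43698 at 8.56 against 36.9 CPM. The T cell adaptor gene Trat1 was at 5.85 against 27.2 CPM.

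CD8 cells just outside the threshold had 2 of the 7 genes (362 cells), and those just inside had 3 (194 cells). Ly6c2 was at 1044 CPM (1009 to 1079) with 2 genes and 1468 CPM (1417 to 1519.7) with 3. Ctla2a was at 120.0 and 330.3 CPM, Cxcr3 at 59.3 and 91.3, Cd44 at 37.5 and 49.6, Eomes at 48.5 and 91.7, Ccr9 at 50.03 and 7.88 and Igfbp4 at 56.9 and 25.5. For these genes the cells with 2 lay between cells with none and members. S100a4 and Dapl1 did not follow this order: with 2 genes S100a4 was at 92.3 CPM, against 48.9 against 14.8 CPM in members and cells with none, and Dapl1 at 606 CPM, against 245 against 588 CPM. Summed levels cannot tell a gradual change from a mix of distinct cells, and the number of genes detected also rises with depth. With the threshold at 2 genes, 3 genes called lower in members were no longer called: Ccr7 (-0.50), Lef1 (-0.71) and Itga4 (-0.69). Itga4 was not called with the threshold at 4 genes either (-0.68).

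Genes differed in where along this range they changed. Ly6c2 rose from 271 CPM with none of the 7 genes to 1468 with 3, and was at 1678 with 5 or more. Cxcr3 was at 91.3, 119 and 93.6 CPM with 3, 4 and at least 5 genes, and Eomes at 91.7, 93.1 and 113. These genes thus had much of their level already with 3 genes. The Ly49 genes outside the rule lay higher along the range: Klra6 was at 7.41, 41.7 and 95.3 CPM, and Klra1 at 5.10, 39.001 and 113. Among naive genes, Ccr9 and Igfbp4 were low from 3 genes on, whereas Dapl1 went on from 349 CPM with 3 to 193 with 4 and 101 with at least 5. Tcf7 was at 269.6, 245 and 240.0 CPM, against 311 with none. Since 3 of the 7 genes are NK receptors (Klrk1, Klra7 and Klre1), cells with more of the 7 must include more of these. This order thus describes the rule as well as the cells.

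**Figure D4:**
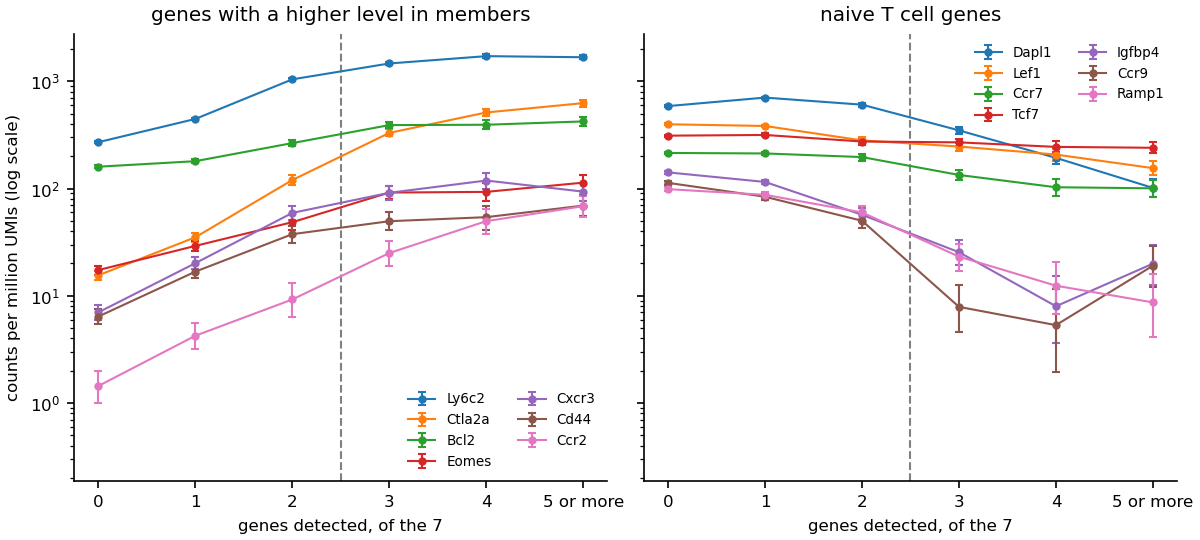
Level in CPM (log scale, with exact 95% Poisson intervals) of 7 genes higher in members (left) and 7 naive T cell genes (right) in CD8 cells by how many of the 7 rule genes were detected, summed over libraries, with the threshold dashed. Ly6c2 goes from 271 to 1678 CPM and Dapl1 from 588 to 101, while Tcf7 stays between 316 and 240.0.

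Members were then split by genes outside the rule. A Klra6 UMI was found in 73 of 395 members (18.5%), 18, 16, 17 and 22 in libraries 1 to 4, at a median depth of 10147 UMIs against 10757.5 in the other 322. Under the same fold rule 1778 genes could be tested between both, 6 were higher with Klra6 (0.337%) and 1 was lower (0.0562%). Higher were Ikzf2, Cd160, Xcl1, Arf4 and the rule genes Klra7 and Klre1, and lower was Dapl1. Ikzf2 was at 263, 205, 192 and 188 CPM in members with Klra6 and 27.7, 33.7, 28.5 and 37.6 CPM in those without. The 2 sets of values are far apart in every library. Cd160 was at 157, 87.02, 129.6 and 106 against 45.4, 38.3, 75.01 and 51.7 CPM and Xcl1 at 185, 118, 176 and 225 against 80.7, 61.5, 87.7 and 114 CPM.

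Counted as cells, Ikzf2 was found in 54.8% (42.7% to 66.5%) against 13.98% (10.4% to 18.2%) of members with and without Klra6. By library these shares were 50, 62.5, 58.8 and 50% with and 9.33, 11.4, 15.4 and 18.9% without. Dapl1 was in 23.3% (14.2% to 34.6%) against 44.4% (38.9% to 50.02%), and in each library the share was lower with Klra6 than without. Klra7 was in 68.5% (56.6% to 78.9%) against 18.9% (14.8% to 23.7%) and Klra1 in 28.8% (18.8% to 40.6%) against 5.90% (3.59% to 9.06%). Eomes and Cxcr3 were found at like shares, Eomes in 54.8% (42.7% to 66.5%) against 56.2% (50.6% to 61.7%) and Cxcr3 in 68.5% (56.6% to 78.9%) against 65.2% (59.7% to 70.4%). Klra3 was in 16.4% (8.79% to 26.95%) against 10.9% (7.69% to 14.8%), with overlapping intervals, and in library 4 its share was lower with Klra6. Members with Klra6 thus showed Klra7, Klra1, Ikzf2, Cd160 and Xcl1 more and Dapl1 less, while their Eomes and Cxcr3 intervals overlapped those of other members. Klra7 and Klre1 helped to choose the cells, and the split gene was taken with earlier results of these data known, so no test was made.

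**Figure D5:**
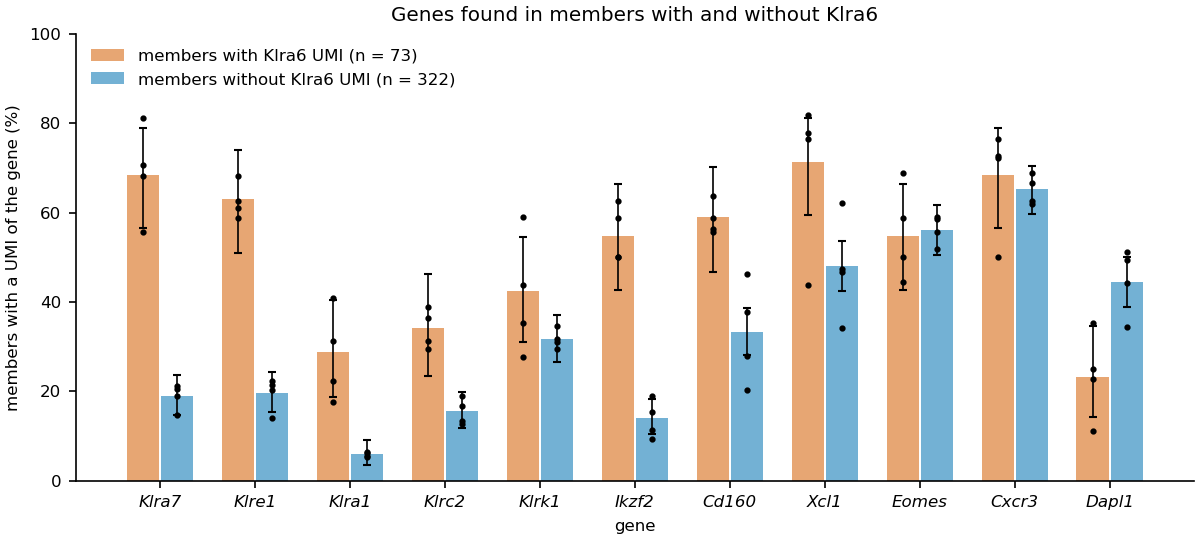
Percentage of members with a UMI of each gene (y axis), for the 73 members with and the 322 without a Klra6 UMI. Bars are shares over all libraries with exact 95% intervals, and points are the 4 libraries. For Ikzf2 all points with Klra6 lie between 50% and 62.5% and all points without between 9.33% and 18.9%, and for Dapl1 the bar with Klra6 is the lower of the 2.

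Itga4 was found in 142 of 395 members (35.9%), at a median depth of 10547 UMIs against 10735 without. Of 3590 genes tested, 16 were higher in members with Itga4 (0.446%) and 2 were lower (0.0557%). The higher genes included Ikzf2 at 121 against 30.2 CPM, Slamf6, a receptor of memory precursors, at 125 against 56.1 CPM, Klra1 at 64.7 against 28.4 CPM, Klrc2 at 52.4 against 26.96 CPM, Fcer1g at 72.7 against 18.8 CPM and Dapl1. Ikzf2 was thus called higher in both splits, and Dapl1 was lower with Klra6 and higher with Itga4. Fcer1g was found in only 47 and Klra1 in 40 of the 395 members. In library 4, 1 cell held 35 of the 71 Fcer1g counts, and in library 2, 1 cell held 21 of the 50 Klra1 counts. The Fcer1g and Klra1 differences therefore rest on few cells. A Cxcr3 UMI was found in 260 members, and 0 of 3200 genes were higher with it and 3 lower (0.0938%). Too few members lacked Ly6c2 (14) or carried Gzmk (10) for more than 298 and 190 genes to be tested, of which 1 (0.336%) and 2 (1.05%) were higher in members with the gene.

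NK-like cells had at least 3 of the 7 genes and no Cd3e, Cd3d, Cd3g, Cd8b1, Cd4, Cd79a or Mki67. There were 62, namely 11, 13, 20 and 18 in libraries 1 to 4, with a median of 5871.5 UMIs. Of 831 genes that could be tested, 69 were higher in members (8.3%) and 157 lower (18.9%). The scaling matters here: under TMM, which removes a median shift of 0.58 on the log2 scale, 153 were higher and 49 lower. Cd74 and H2-Aa, genes of antigen-presenting cells, were at 258, 406, 1144 and 4927 and 113, 433, 462 and 2710.1 CPM in NK-like cells of libraries 1 to 4, most in library 4. The part of cells or RNA with these genes in the contrast was not tested.

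The genes of the rule did not stand at the same level in both. Klrk1 was at 87.6 against 1157 CPM in members and NK-like cells, Klre1 at 72.1 against 691 CPM, Klra7 at 83.1 against 413 CPM, Ccl5 at 3181 against 11556 CPM and Il2rb at 242 against 612 CPM. Samd3 was nearly equal at 98.6 against 96.8 CPM. Gzmm had 486 counts in members (109 CPM) and 0 in NK-like cells, where a floor of 3 counts makes it at least 14.3-fold higher in members. These 7 genes chose both classes, so their levels are a description, and the NK-like class held 392451 UMIs.

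Of 5 lectin-like receptor genes tested outside the rule, 4 were lower in members than in NK-like cells and none was higher. Klra4 (Ly49D), an activating receptor, was at 12.2 against 665 CPM. Klra6 was on the other side, at 38.96 against 5.10 CPM, with 2 counts in NK-like cells, all in library 3, and could not be tested. Klra1 was at 41.7 against 78.99 CPM and was not tested either. Of 7 cytotoxic genes 5 were lower, with Gzma at 66.4 against 7698 CPM, Prf1 at 61.9 against 423 CPM and Nkg7 at 914 against 2298 CPM. Ly6c2 was higher in members, at 1586 against 278 CPM (2.51), as were the naive factors Lef1 at 213 against 38.2 CPM, Tcf7 at 256 against 81.5 CPM and Satb1, 3 of 6 tested. Eomes was lower in members at 97.7 against 183 CPM, a log2 ratio of -0.91, and the TMM shift of 0.58 would bring it under 1.5-fold. Bcl2 was at 399.7 against 319 CPM and was not called, and Cxcr3, at 98.9 against 68.8 CPM, was not tested. Trac, Cd8a and Trbc2 were also higher in members, at 471 against 7.64 CPM, 279 against 5.10 CPM and 1116 against 283 CPM, and NK-like cells were chosen to lack CD3 and Cd8b1. Without library 2, 3 or 4, Cd8a, Lef1, Cd74 and H2-Aa could not be tested.

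Levels within members differed between libraries for few genes. Of 2398 genes with at least 50 CPM in a library, 21 had a ratio of at least 2 between the highest and the lowest library after 10 CPM were added to each. Gzma was at 3.09, 26.4, 6.14 and 197 CPM in libraries 1 to 4, and the value of library 4 came from 1 cell. Hbb-bs, a globin gene of red cells, was at 94.7, 88.01, 2.63 and 13.8 CPM and followed the comparison class, at 158, 171, 6.67 and 19.9 CPM. Ifi27l2a, an interferon-induced gene, was at 267, 384, 749.5 and 789 CPM in members and 593, 542, 1103 and 1186 CPM in the comparison class. In both classes libraries 3 and 4 were above libraries 1 and 2, and in each library members were below the comparison class. Gm10076 was at 159, 443, 307 and 573 and 165, 391, 277 and 509 CPM, with the same order of libraries in both classes.

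Stmn1 and S100a4 differed between libraries more in members than in the comparison class. Stmn1, which controls microtubules in dividing cells, was at 18.5, 31.3, 45.6 and 120.1 CPM in members and 10.7, 13.8, 8.16 and 9.61 CPM in the comparison class. In library 4, 28 of 112 members held its 157 counts, and the cell with the most held 21. S100a4, a calcium-binding protein of motile and memory cells, was at 16.5, 103, 52.7 and 27.5 against 6.01, 24.2, 18.98 and 10.4 CPM, and 1 cell held 50 of its 105 counts in library 2. Which of these libraries came from treated mice is not known from the tables.

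Beta chain segments of the T cell receptor gave 121 UMIs in members, too few to describe clones. Trbv12-2 had the most, 24 UMIs or 19.8% (13.1% to 28.1%), against 11.03% (9.14% to 13.2%) of 979 UMIs in the comparison class, and its UMIs were spread as 5, 6, 7 and 6 over the libraries. No segment reached 30 UMIs in members.

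Promoter windows were searched for short core motifs of 3 factor families on both strands, in the 250 bases before the first listed RefSeq start of each gene. The motifs were GGTGTGA for T-box factors such as Eomes and T-bet, TGTGGTT for RUNX factors and AGGAAGT for ETS factors. Windows were matched for 124 of the 155 genes higher in members, 68 of the 90 lower and 5242 of the 6564 tested. The RUNX letters were in 11 of 124 windows of higher genes (8.87%), 5.88% of lower genes, 3.32% of tested genes and 4.46% of all 27025 windows. The T-box letters were in 7 of 124 (5.65%), against 2.65% of tested genes and 3.31% of all. The ETS letters were in 7.26% of higher genes and 8.39% of tested genes. The shares rest on few windows, and no test was made. In the windows printed above, the RUNX letters lie 129 bases before the start of Klrk1, 180 before Ly6c2 (reverse) and 228 before Xcl1 (reverse), the ETS letters 107 before Ly6c2 and 58 before Xcl1, and the T-box letters 188 before Xcl1. None of these matches share a base. The printed windows of Klra6, Klra7 and Ly6c1 hold none of the 3 motifs. The Klra7 window is that of its second listed start. A second listed start of Ly6c1 has a window with the T-box letters 112 and the ETS letters 126 bases before it.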

How the data were processed

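The deposited values are whole-number UMI counts per gene and cell barcode from 10x 3' v3 libraries of nodes of 4 mice, made with cellranger 5.0.0, per the file headers, on mm10, per the submitters' processing notes. Strand and aligner settings, any correction for free RNA and whether the mice were littermates are not given in the sources used here. The 4 libraries held 39589629 to 53643414 UMIs.

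Barcodes were kept from 300 genes upwards if mitochondrial UMIs made up no more than 10%. Members, lists of genes and splits were chosen with earlier results of these data known, and libraries could not be assigned to mice, so no test between conditions or over libraries was made. Counts were summed by class and library. A gene was tested where the mean CPM of both classes gave at least 10 counts at the smaller class total in at least 3 libraries, and called at 1.5-fold in each of them. The 7 rule genes, the 5 gate genes and mitochondrial genes were not called. Named were the rule genes, the genes with the largest ratio in each list (30 in all), 5 in each direction outside the lists, further fixed genes, and the genes that differed most between libraries, while other genes were named after their values were seen. On simulated data with 4-fold changes the rule recovered 98% of changed genes against cells with none (38% of those with 2-fold changes). It called 0.221% of unchanged genes. Against NK-like cells it recovered 99% and 49.5% and called 0.391%. The simulated counts had a dispersion (spread beyond counting error) of 0.05. Genes with most counts in few cells, such as Gzma with 255 of 295 counts in 1 member, can spread more, and these shares may not hold for them.

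Scrublet (in scanpy 1.11.5) used 0.8% doublets per 1000 cells. Thinning drew 1500 UMIs per cell (seed 1). Exact 95% intervals are Clopper-Pearson for shares and Poisson for counts. Other software was numpy 2.4.6, scipy 1.17.1, edgeR 4.0.16 for TMM factors and matplotlib 3.10.9. Gene positions are from GENCODE vM21, and promoters from RefSeq (GRCm38.p6). The split of UMIs into equal parts was added after the data were seen. A few genes of the lists are not reported here.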

Additional observations from a re-analysis of the deposited data

How the results depend on the processing

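With the threshold at 2 of the 7 genes the share of members among CD8 cells was 13.5%, 13.5%, 11.4% and 12.7% in libraries 1 to 4, and at 4 genes 3.54%, 3.69%, 2.502% and 3.79%. With the rule applied to cells thinned to 1500 UMIs the shares were 0.201%, 1.17%, 1.29% and 0.465%, so membership needs depth, and Stmn1 then had a log2 ratio of -0.077. With at least 500 genes and at most 5% mitochondrial UMIs the share in library 1 was 5.64%. Leaving out 1 library gave a share of 6.45% to 6.83% over the others.

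Against CD8 cells with none of the 7, leaving out 1 library gave 150 to 168 genes higher and 91 to 109 lower. Genes higher and lower numbered 92 and 49 with at least 500 genes and 5% mitochondrial UMIs, 5 and 1 with the rule on thinned cells, 26 and 12 with thinned values, 84 and 38 at 2-fold, and 73 and 31 with rule and values on separate UMIs. With a count minimum of 20, 103 were higher, and with the threshold at 4 genes 55 were lower. With no count minimum 432 were higher and 967 lower, so the share of higher genes among those called went from 63.3% to 30.9%. The 73 and 31 included 80 of the 245 genes called otherwise. The stricter filter, thinning, the higher threshold, the higher count minimum and the split of UMIs leave fewer genes to test.

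Against NK-like cells, leaving out 1 library gave 69 to 81 genes higher and 111 to 165 lower. TMM scaling gave 153 higher and 49 lower (75.7% higher, against 30.5%), no count minimum 1305 and 874, and 2-fold 16 and 78. Genes lower numbered 321 at a count minimum of 5 and 64 at 20. No paired analysis was possible because the mouse numbers of the labels cannot be tied to the libraries.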
